A study of Homo sapiens with 3 samples.

Results

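SNORD16 (also U16) and the U18 paralogs SNORD18A, SNORD18B and SNORD18C are box C/D small nucleolar RNAs (snoRNAs) that lie in introns of 1 gene, RPL4, which encodes ribosomal protein L4. The 4 members were taken as the rows of the read tables listed under these 4 names. They were 4 of 260 snoRNA entries and held 1502 of 51039 reads, in 585 of 21296 records. The reads came from small RNA of HEK293 cells, an established human embryonic kidney line grown in DMEM with 10% serum. RNA came from a phenol/chloroform extraction, bead purification enriched its small RNA, and adapters and barcodes were added (Ion Total RNA-Seq Kit v2). The 3 libraries form 1 group with no treatment or control, and are numbered as in their titles, so all comparisons were made between snoRNAs within libraries. Whether separate cultures lie behind the libraries is not in the labels, so p-values cover only the spread among these libraries, which may be technical. Tables of snoRNA reads hold no defining marker of the cell line, and the label was not checked against one.

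Box C/D snoRNAs guide 2′-O-methylation of other RNAs. A C box near the 5′ end and a D box near the 3′ end bind the core proteins, among them the methylase fibrillarin, and the stretch just before a D box or an internal D′ box pairs with the target. SNORD16 is known as the guide of a methylation in 18S rRNA and SNORD18 as the guide of a methylation in 28S rRNA. Most vertebrate box C/D snoRNAs are cut out of spliced introns, and the protein-bound body of the snoRNA is what stays behind. Whether the members studied here are released in this way was not tested.

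In the GENCODE 29 annotation of GRCh38, RPL4 lies on the minus strand of chromosome 15 (chr15:66498015-66524532), and the 4 snoRNAs lie inside introns of its transcript of 10 exons. SNORD18A (chr15:66503243-66503314) is in intron 2, SNORD16 (chr15:66502812-66502910) in intron 3, SNORD18B (chr15:66502020-66502091) in intron 4 and SNORD18C (chr15:66501250-66501318) in intron 6. The introns have 193 nt, 307 nt, 699 nt and 269 nt in that order. The 3′ end of the snoRNA lies 78 nt, 61 nt, 107 nt and 144 nt before the end of its intron. The GENCODE sequences are shown because the boxes and the differences between the paralogs give the reads their place. Capitals mark the first TGATG (the core of the C box) and the last CTGA (the D box), and the SNORD18 sequences are printed over the length of their entries in the read tables.
SNORD16: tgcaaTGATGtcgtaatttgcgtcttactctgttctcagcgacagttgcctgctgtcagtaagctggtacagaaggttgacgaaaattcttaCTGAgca
SNORD18A: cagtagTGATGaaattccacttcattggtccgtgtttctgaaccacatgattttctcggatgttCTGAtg
SNORD18B: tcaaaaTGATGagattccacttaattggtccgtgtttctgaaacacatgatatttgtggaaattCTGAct
SNORD18C: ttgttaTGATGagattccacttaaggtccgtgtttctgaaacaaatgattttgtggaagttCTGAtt

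The motifs were searched on the RNA strand. TGATG within the first 15 bases and CTGA within the last 15 occurred together in 210 of 275 GENCODE SNORD transcripts (76.4%), so holding both does not set the 4 members apart. The SNORD18 paralogs were 80.6% (SNORD18A and SNORD18B), 80% (SNORD18A and SNORD18C) and 85.7% (SNORD18B and SNORD18C) identical. SNORD16 was 47% to 52% identical to them. All 3 paralogs share the run GGTCCGTGTTTCTGAA of 16 nt. It starts at position 27 in SNORD18A and SNORD18B and at position 25 in SNORD18C, and it holds the stretch known to pair with 28S rRNA. The run occurred in 3 of the 275 transcripts, which were these 3. The paralogs differ on either side of it. Read sequences were not available, so the GENCODE stretch between the start and end of each read was compared with the other paralogs. No such stretch matched another SNORD18 member exactly. The stretches of 2 of 327 SNORD18A reads, 8 of 304 SNORD18B reads and 0 of 193 SNORD18C reads came within 2 mismatches of one. Whether reads with errors or gaps were assigned to the right paralog was not tested.

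Library 1 held 19989 snoRNA reads, library 2 held 11958 and library 3 held 19092. Library 2 stood apart, with 27.3% of its reads at up to 40 nt, against 11.9% in library 1 and 12.1% in library 3. Alignments whose read length differed from the span on the snoRNA made up 17.3% to 25.3% of the reads of each member and 17.3% to 24.4% of all reads of a library. The members had no record on the opposite strand. Intervals on shares are exact (Clopper-Pearson) 95% binomial intervals and cover counting error only, since the reads carry no molecular identifiers and need not stem from independent molecules.

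SNORD16 was the most abundant member by mean level, and SNORD18C was lower than the other members in every library. SNORD16 had 280, 91 and 307 reads in libraries 1, 2 and 3. That was 1.40%, 0.761% and 1.61% of all snoRNA reads (mean 1.26% ± 0.44, SD, n = 3), lowest in library 2. SNORD18A had 99, 70 and 158 reads (0.636% ± 0.17 of all reads, SD, n = 3), highest in library 3. SNORD18B had 120, 56 and 128 reads (0.580% ± 0.10, SD, n = 3) and varied least, by 1.43-fold between libraries. SNORD18C had 65, 24 and 104 reads (0.357% ± 0.17, SD, n = 3) and varied most, by 2.71-fold. Among the 147 box C/D snoRNAs, the members ranked 21 (SNORD16), 45 (SNORD18A), 48 (SNORD18B) and 69 (SNORD18C) by mean share, where the median was 0.332%. The family together took 2.82%, 2.02% and 3.65% of the reads.

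**Figure D1:**
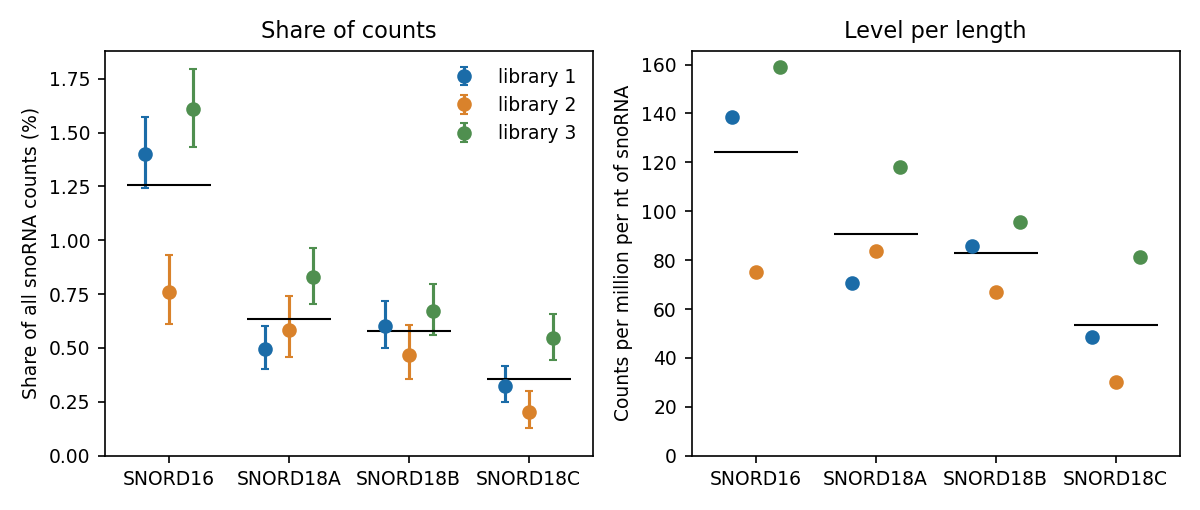
Level of each member in libraries 1 (blue), 2 (orange) and 3 (green), as a share of all snoRNA reads (left, %, with 95% exact binomial intervals) and as counts scaled to the library total (CPM) per nt of snoRNA (right). Horizontal lines are means over the 3 libraries. SNORD16 is above the paralogs in all 3 libraries by share and in libraries 1 and 3 per nt, and SNORD18C is lowest in all 3 by both.

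Because SNORD16 spans 101 nt in the read tables and SNORD18A, SNORD18B and SNORD18C span 70, 70 and 67 nt, levels were compared per length. Most reads ran over nearly the whole snoRNA, so a read may stand for 1 molecule. Division by length may then understate SNORD16. With counts scaled to the total of snoRNA reads in the library (CPM), SNORD16 had 139, 75.3 and 159 CPM per nt in libraries 1, 2 and 3. SNORD18A had 70.8, 83.6 and 118 CPM per nt, SNORD18B had 85.8, 66.9 and 95.8, and SNORD18C had 48.5, 29.96 and 81.3. The order was therefore SNORD16, SNORD18A, SNORD18B and SNORD18C by mean. In library 2 SNORD18A stood above SNORD16 per nt, but below it by share (0.585% against 0.761%).

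The per-length ratio of SNORD16 over SNORD18C was 2.86, 2.52 and 1.96 in libraries 1, 2 and 3, a mean log2 ratio of 1.27 ± 0.28 (SD, n = 3). It exceeded 1 in every library. SNORD16 over SNORD18B was 1.62, 1.13 and 1.66 (log2 0.53 ± 0.31), also above 1 in every library. SNORD16 over SNORD18A was 1.96, 0.901 and 1.35 (log2 0.42 ± 0.56), a difference smaller than its spread. That depends on the division by length: with undivided reads, a scale chosen after seeing the data, the log2 ratio was 0.95 ± 0.56. The log2 ratio of SNORD18A over SNORD18C was 0.86 ± 0.54 and that of SNORD18B over SNORD18C 0.74 ± 0.47, each positive in 3 of 3 libraries. SNORD18A over SNORD18B was 0.825, 1.25 and 1.23 (log2 0.12 ± 0.34), again within the spread. Over the 6 pairs per length, two-sided exact sign-flip permutation tests gave p = 0.25 for the 4 pairs with 1 direction in all libraries. The same permutation tests gave p = 0.5 for the other pairs, and 0.25 is the smallest value that 3 libraries allow. Benjamini-Hochberg adjustment over the 6 pairs gave 0.375 and 0.5, so no pair passed.

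The box C/D snoRNAs whose log2 shares over the 3 libraries lay nearest to those of SNORD16 were SNORD46, SNORD49A and SNORD83B, at Euclidean distances of 0.489, 0.550 and 0.626 among 135 compared. Nearest to SNORD18B were SNORD11 (0.387), the entry HBII_95B (0.395) and SNORD20 (0.435). Nearest to SNORD18C were SNORD22 (0.325), SNORD65 (0.463) and SNORD67 (0.554). SNORD18A lay 0.0571 from the entry mgh28S_2411, 0.295 from SNORD11 and 0.301 from HBII_95B. No other member was among the 3 nearest of any member. These distances reflect differences in level as well as changes between libraries, so they do not show whether the members vary together.

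Most reads of every member ran over nearly the whole snoRNA, and SNORD16 had the highest mean share of such reads, though in library 2 it was below SNORD18A and SNORD18C. Reads spanning at least 90% of the snoRNA made up 89.3%, 80.2% and 90.2% of SNORD16 reads in libraries 1, 2 and 3 (86.6% ± 5.5, SD, n = 3), against 69.8%, 57.0% and 67.0% over all box C/D snoRNAs outside the family. SNORD16 was above the others in each library, by 21.9 ± 2.2 percentage points. Of 108 box C/D snoRNAs with 10 or more reads in each library SNORD16 ranked 10, and their median was 70.3%. The 3 SNORD18 paralogs lay close together. SNORD18A had 77.8%, 82.9% and 77.2% such reads, SNORD18B had 75.8%, 71.4% and 78.9%, and SNORD18C had 76.9%, 83.3% and 81.7%. The difference from the other box C/D snoRNAs was 14.6 ± 9.7 points for SNORD18A, 10.7 ± 4.3 for SNORD18B and 16.02 ± 9.7 for SNORD18C, positive in 3 of 3 libraries for each. By mean share SNORD18C ranked 30, SNORD18A 38 and SNORD18B 46 of the 108, and SNORD18B, at 75.4%, lay near their median. The other box C/D snoRNAs were pooled by reads. The pool holds abundant entries with almost no read of this class, such as SNORD69 (0.158%) and SNORD4B (1.27%), named after their values were seen. Reads of up to 40 nt were only 5.66% and 8.53% of their reads, so most of their reads lay between the 2 classes. The span was measured against the highest position in the records of an entry. Whether that length exceeds the snoRNA in such entries, and so lowers the pool, was not tested. The differences from the pool therefore do not show that the members are unusually intact. Sign flips over the libraries (exact permutation test) gave p = 0.25 for each of the 4 differences, also after adjustment over the 4.

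The size of that difference followed the span required. With 95% of the snoRNA required it was 42.2, 33.6, 25.3 and 29.4 points for SNORD16, SNORD18A, SNORD18B and SNORD18C. With 80% required it was 11.6, 3.44, 2.79 and 7.48 points, and for SNORD18A and SNORD18B this was less than the spread between libraries. Within the family, SNORD16 exceeded the 3 SNORD18 paralogs, pooled, by 8.44 ± 6.0 points, in 3 of 3 libraries (exact permutation p = 0.25).

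The 4 members together had 82.1% ± 2.5 near full-length reads (SD, n = 3). This was 7.84 ± 7.0 points above SNORD24 and SNORD36A, B and C, which lie in introns of RPL7A (74.2% ± 9.2), in 3 of 3 libraries (exact permutation p = 0.25). The difference was 1.20, 15.2 and 7.10 points in libraries 1, 2 and 3. Each family was pooled by reads, and SNORD24 held 581 of 730, 292 of 403 and 410 of 656 RPL7A reads. Taken singly, SNORD24 had 73.5% such reads, SNORD36A 79.5%, SNORD36B 75.4% and SNORD36C 63.8%. SNORD58A, B and C, which lie in introns of RPL17, had 82.8% ± 3.3, and the RPL4 members differed from them by -0.77 ± 2.3 points (exact permutation p = 0.75). Among 28 listed box C/D snoRNAs of other ribosomal protein genes, 23 had at least 10 reads in every library, and their median near full-length share was 79.6%. Of these 23, 5 were above SNORD16. By level, 7 of the 28 were above SNORD16 and 11 were below SNORD18C.

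**Figure D2:**
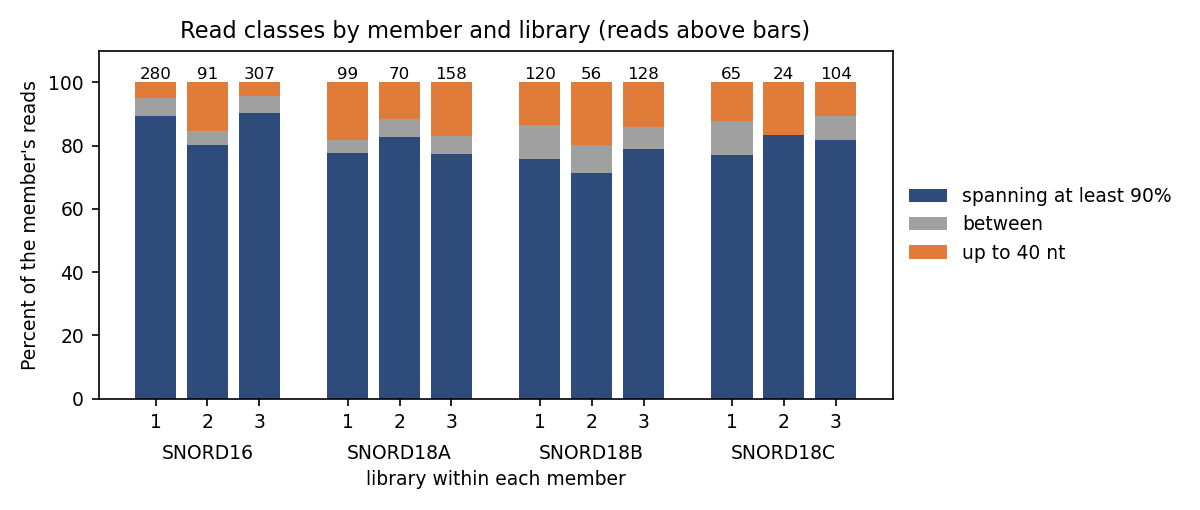
Percent of each member's reads in each library that spanned at least 90% of the snoRNA (blue), were at most 40 nt long (orange) or lay between (grey), with the number of reads above each bar. Near full-length reads are the largest class in all 12 bars, and the short class of SNORD16 is 5%, 15.4% and 4.23% in libraries 1, 2 and 3.

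The SNORD18 paralogs differed in how often near full-length reads began at position 1. Of SNORD16 reads of this class, 94.8% ± 1.5 began at position 1, and the commonest SNORD16 read ran over positions 1 to 101, with 218, 64 and 240 reads (77.0% of its reads). In the SNORD18 paralogs the commonest read began at position 2, which is 5 nt before the TGATG of the C box in all 3. Position 1 of SNORD16 is also 5 nt before its TGATG if its entry begins where the GENCODE sequence does, which could not be checked. The positions therefore do not show that SNORD16 and the paralogs begin at different distances from the C box. SNORD18A reads over positions 2 to 70 numbered 63, 54 and 108 (68.8%). SNORD18C reads over positions 2 to 67 numbered 38, 15 and 71 (64.2%). In SNORD18B the read over positions 2 to 70 was also the commonest, with 58, 22 and 61 reads, but its share was 46.4%. A SNORD18B read longer by 1 base at the 5′ end, over positions 1 to 70, added 18, 7 and 18 reads (14.1%).

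Position 1 was the first base of 9.09%, 1.72% and 2.46% of near full-length SNORD18A reads in libraries 1, 2 and 3, against 26.4%, 20% and 23.8% of those of SNORD18B. The groups did not overlap, and the difference, SNORD18A minus SNORD18B, was -18.95 ± 2.1 points. For SNORD18C the shares were 14%, 5% and 8.24%. SNORD18B minus SNORD18C was 14.3 ± 1.7 points and SNORD18A minus SNORD18C was -4.65 ± 1.3 points, each with 1 sign in 3 of 3 libraries. Two-sided exact sign-flip permutation tests of these 3 differences gave p = 0.25 each, also after adjustment. These start positions were picked for comparison after their values had been seen. At the 3′ end the last position of the entry was the last base of 92.0% of near full-length SNORD16 reads, 95.2% of those of SNORD18A, 81.4% of those of SNORD18B and 89.5% of those of SNORD18C. In the SNORD18 paralogs that end lies 2 nt after the D box.

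**Figure D3:**
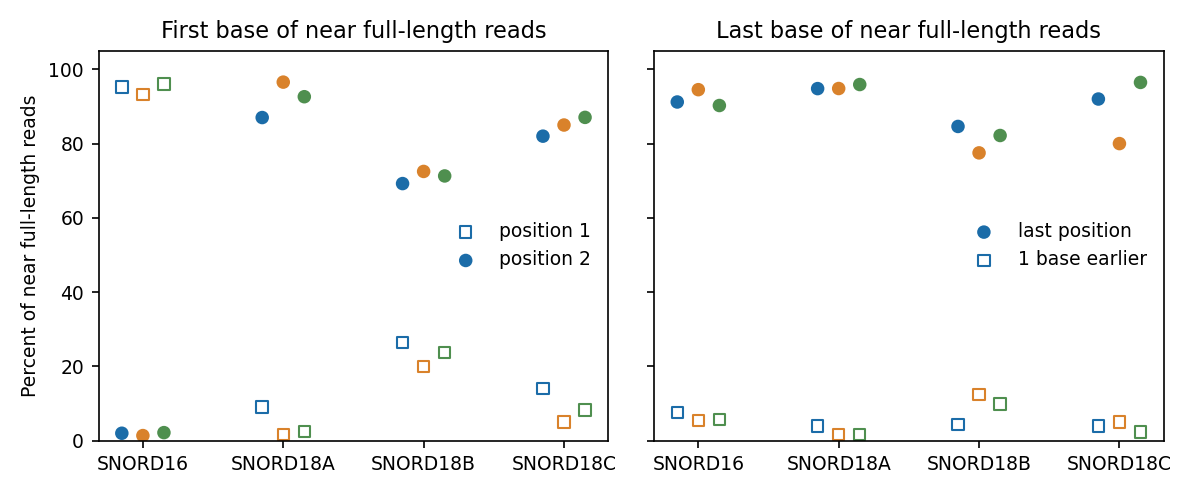
Percent of near full-length reads whose first base was position 1 or 2 (left) and whose last base was the last position of the entry or 1 base earlier (right), for each member; points from left to right are libraries 1 (blue), 2 (orange) and 3 (green). SNORD16 begins at position 1, the SNORD18 paralogs mostly at position 2, and SNORD18B has 20% to 26.4% of its starts at position 1. Positions are counted within each entry, not from the C box.

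Short reads of up to 40 nt were few. SNORD16 had 14, 14 and 13 of them, which was 5%, 15.4% and 4.23% of its reads, against 11.6%, 25.5% and 11.5% over the other box C/D snoRNAs. It was lower in each library, by -7.98 ± 1.8 points (SD, n = 3, exact permutation p = 0.25, 1 after adjustment over the 4 members). The limit of 40 nt is a smaller part of SNORD16 (101 nt) than of the paralogs (67 to 70 nt) or the median box C/D entry (76 nt). The short class is therefore not the same part of the molecule in each. SNORD18A had 18, 8 and 27 short reads (15.6% ± 3.6), SNORD18B had 16, 11 and 18 (15.7% ± 3.5), and SNORD18C had 8, 4 and 11 (13.2% ± 3.1). Their differences from the other box C/D snoRNAs were -0.62 ± 12, -0.50 ± 4.6 and -3.00 ± 5.1 points, all within the spread. For SNORD18A and SNORD18B the difference turned positive without library 2, to 6.09 and 2.15 points. Reads of 20 to 24 nt, the size range of miRNAs, numbered 12 in SNORD16, 17 in SNORD18A, 12 in SNORD18B and 3 in SNORD18C over the 3 libraries.

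The short reads of SNORD16 lay mostly in its 5′ part, while those of the paralogs came from both parts. Of 41 short SNORD16 reads, 30 began within 2 nt of the common start, 4 ended within 2 nt of the common end and 7 lay inside. Of 121 short SNORD18 reads, 63 began at the common start, 52 ended at the common end and 6 lay inside. Reads that began at the common start made up 71.4%, 85.7% and 61.5% of the short reads of SNORD16 in libraries 1, 2 and 3, against 40.5%, 52.2% and 60.7% of those of the paralogs, pooled. The difference was 21.8 ± 18 points (SD, n = 3, exact permutation p = 0.25), close to its spread and only 0.824 points in library 3. Against the other box C/D snoRNAs it was 18.6 ± 16 points, positive in 3 of 3 libraries (exact permutation p = 0.25). By member, 20 short reads at the 3′ end and 30 at the 5′ end were counted in SNORD18A, 24 and 19 in SNORD18B, and 8 and 14 in SNORD18C. The 41 SNORD16 reads fell on 23 distinct pairs of start and end, and the 53, 45 and 23 short reads of SNORD18A, SNORD18B and SNORD18C on 25, 29 and 18. Most short fragments were thus seen in 1 or a few reads.

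**Figure D4:**
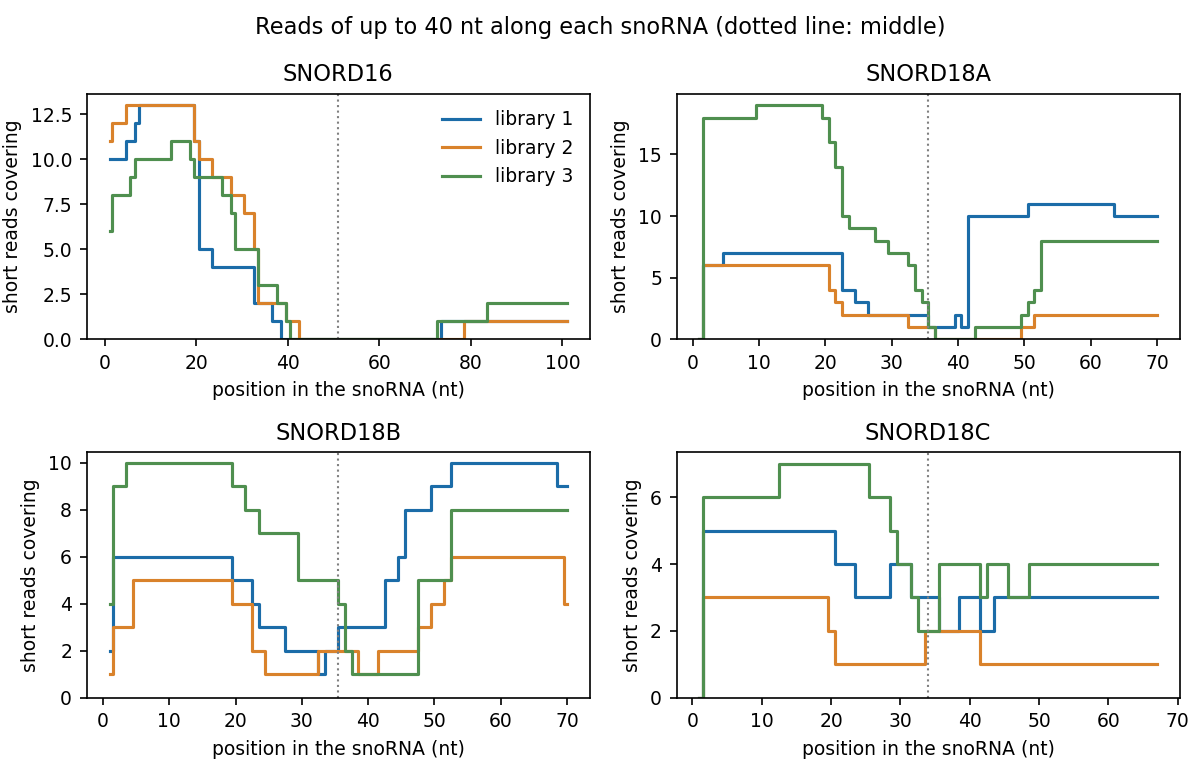
Number of short reads (up to 40 nt) covering each position of each member, in libraries 1, 2 and 3; the dotted line is the middle of the snoRNA, and the vertical scales differ between panels. SNORD16 is covered almost only before its middle, and SNORD18A, SNORD18B and SNORD18C are covered from both ends.

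The side was tested with edgeR's quasi-likelihood test, in 1 fit over the 133 snoRNAs with at least 10 placed short reads. A read was placed by whether its midpoint lay beyond or before the middle of the snoRNA. SNORD16 had 1, 1 and 2 short reads in its 3′ part, against 13, 13 and 11 in its 5′ part, in libraries 1, 2 and 3. Its 5′ reads were more frequent in every library, with a log2 ratio of 3′ over 5′ reads of -3.10 ± 0.96 (SE, edgeR adjusted p = 0.00997). It was the only member of the 4 that passed the threshold of 0.05, and 26.3% of all snoRNAs tested passed it, 11.3% towards the 3′ part and 15% towards the 5′ part. The SNORD16 call was lost when any 1 library was left out (log2 ratio -3.54 to -2.90, adjusted p 0.143 to 0.232), with DESeq2 (adjusted p = 0.0538) and with reads of up to 30 nt (edgeR adjusted p = 0.0576). SNORD16 had 90.1% ± 4.8 of its placed short reads in the 5′ part, against 56.0% ± 12 in the SNORD18 paralogs together (SD, n = 3). The difference of 34.1 ± 15 points had 1 sign in 3 of 3 libraries (exact permutation p = 0.25), and so had that from the other box C/D snoRNAs, of 30.9 ± 9.2 points.

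SNORD18A had 11, 2 and 8 short reads in its 3′ part, against 7, 6 and 19 in its 5′ part. The 3′ reads led in library 1 and the 5′ reads in libraries 2 and 3, and the log2 ratio was -0.62 ± 0.77 (SE, edgeR adjusted p = 0.593). SNORD18B had 10, 6 and 8 against 6, 5 and 10 (log2 0.21 ± 0.79, edgeR adjusted p = 0.869). SNORD18C had 3, 1 and 4 against 5, 3 and 7 (log2 -0.92 ± 0.98, edgeR adjusted p = 0.523), with the 5′ reads ahead in all 3 libraries. None of the 3 paralogs passed the threshold, which does not show that their sides are alike.

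In the listed box C/D snoRNAs of other ribosomal protein genes, 24 could be tested on short reads. Of these, 2 had more 3′ reads, SNORD14A (log2 5.08, edgeR adjusted p = 7.07e-06) and SNORD36C (log2 2.79, edgeR adjusted p = 0.0396). More 5′ reads were found in 3, which were SNORD83B, SNORD102 and SNORD24 (log2 -3.08, -2.45 and -1.79). No snoRNA passed without library 2 or without library 3 in edgeR, where 22 and 21 had an unadjusted p under 0.05, so these calls are lost there too. With all 3 libraries, DESeq2 called 19 of the 133. The median of the 24 was -0.90, and that of all 133 was -0.50.

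A few short fragments recurred, and their sequences are shown because they are the pieces of the paralogs that were read most often. Capitals mark the fragment within the snoRNA, laid on the GENCODE sequence by the entry's length and 5′ end. The SNORD18A fragment over positions 42 to 70 (chr15:66503245-66503273) had 8, 0 and 0 reads in libraries 1, 2 and 3, so it rests on library 1. The SNORD18A fragment over positions 2 to 22 (chr15:66503293-66503313) had 2, 1 and 4 reads. The SNORD18B fragment over positions 48 to 70 (chr15:66502022-66502044) had 0, 1 and 4.
SNORD18A 42 to 70: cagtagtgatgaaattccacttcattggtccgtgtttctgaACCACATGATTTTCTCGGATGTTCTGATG
SNORD18A 2 to 22: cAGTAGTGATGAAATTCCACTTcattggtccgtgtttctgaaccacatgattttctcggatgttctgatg
SNORD18B 48 to 70: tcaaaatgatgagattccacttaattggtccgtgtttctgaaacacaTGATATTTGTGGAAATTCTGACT

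None of these fragments occurs in another member. The SNORD18A fragment over positions 42 to 70 begins at the last base of the run shared by the paralogs and holds the D box, while the fragment over positions 2 to 22 holds the C box. The SNORD18B fragment over positions 53 to 70 had 1, 1 and 3 reads, and the SNORD18C fragment over positions 2 to 41 had 1 in each library. In SNORD16 the leading short fragments ran over positions 1 to 20 (6, 1 and 0 reads), 1 to 33 (0, 3 and 2 reads) and 1 to 19 (2, 1 and 0 reads). The SNORD16 entry spans 101 nt, while GENCODE gives 99 nt and RefSeq 100 nt, so its positions could not be laid on the sequence base by base and no fragment of it is printed.

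With reads of every length placed by their midpoint, all 4 members passed the edgeR test, in which 66.7% of 108 snoRNAs passed. SNORD16 leaned to the 5′ side, as did 39.8% of the snoRNAs tested, and the 3 SNORD18 paralogs to the 3′ side, as did 26.9%. SNORD16 had 14, 7 and 15 reads in the 3′ part, against 46, 20 and 52 in the 5′ part (log2 -1.68 ± 0.35, SE, edgeR adjusted p = 0.00627). SNORD18A had 78, 57 and 122 against 11, 11 and 31 (log2 2.35 ± 0.27, edgeR adjusted p = 0.000731). SNORD18B had 71, 31 and 78 against 28, 13 and 25 (log2 1.42 ± 0.26), and SNORD18C had 45, 17 and 81 against 10, 6 and 14 (log2 2.11 ± 0.38), with edgeR adjusted p = 0.00385 and 0.00373. Reads centred exactly on the middle were not placed. These were 524 of the 678 SNORD16 reads, its commonest read among them, so its lean rests on 36 reads in the 3′ part and 118 in the 5′ part. In SNORD18A, SNORD18B and SNORD18C they were 17, 58 and 20 reads, and the commonest read was placed.

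The 3′ lean of the paralogs was carried by near full-length reads. A read over positions 2 to 70 has its midpoint just beyond the middle of the snoRNA, and such reads were 225 of the 257 SNORD18A reads on the 3′ side and 141 of the 180 of SNORD18B. With midpoints within 2 nt of the middle counted as centred, a setting chosen after seeing the data, the log2 ratio was -1.05 for SNORD18A (edgeR adjusted p = 0.188) and -0.48 for SNORD18B (0.395), and SNORD18C had too few reads left. SNORD16 then had -2.26 (edgeR adjusted p = 0.00493). Leaving out library 1 or library 3 ended the SNORD16 call for reads of every length (adjusted p up to 0.0746), leaving out library 1 that of SNORD18B, and leaving out library 3 that of SNORD18C. With each distinct record counted once, none of the 3 paralogs passed.

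**Figure D5:**
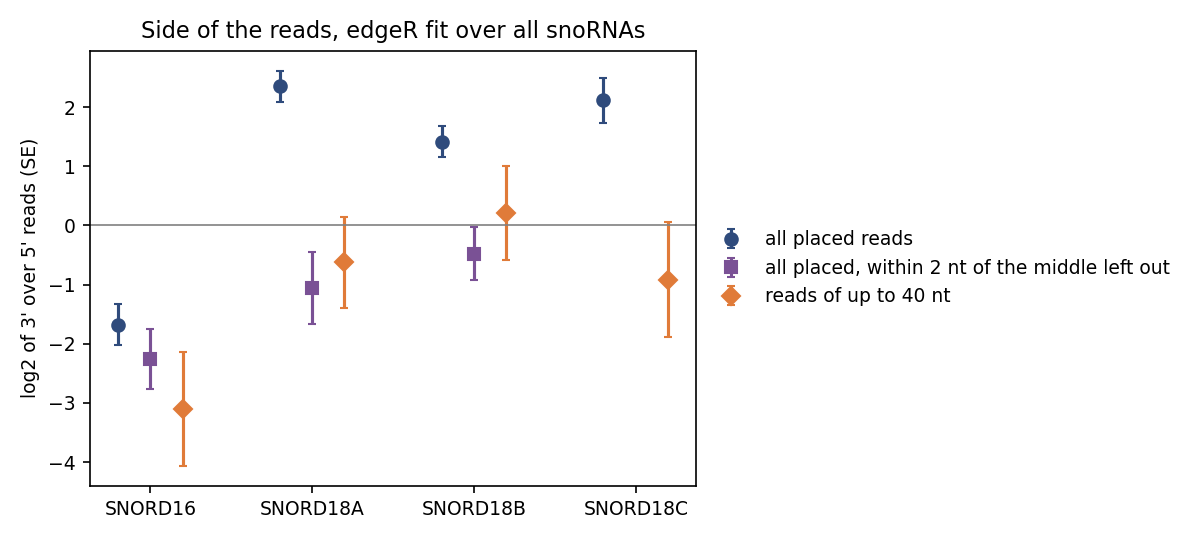
log2 ratio of 3′ over 5′ reads (± SE) of each member in edgeR fits over all snoRNAs tested, for all placed reads (blue circles), all placed reads with midpoints within 2 nt of the middle counted as centred (purple squares) and reads of up to 40 nt (orange diamonds). SNORD16 is below 0 in all 3 fits, while SNORD18A and SNORD18B are above 0 for all placed reads and below 0 once reads near the middle are left out.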

How the data were processed

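Per the file headers, the deposited values are raw counts: the number of reads of each record, listed with its entry, its length and where on the snoRNA it begins and ends. The submitters' processing notes name GRCh38.p10 as the authors' build. Not given in the sources used here are the aligner, the trimming, the filters and the treatment of reads that match several entries. Each record was listed under 1 entry. A deposited table of the whole series was not used here.

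The highest position in its records was used as a snoRNA's length. For the SNORD18 paralogs this equals the RefSeq length, as it does for 177 of 247 named snoRNAs. Names came from a RefSeq gene table (GRCh38.p14, names and lengths only). The members and lists were chosen with earlier results of these data known.

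The side of the reads was compared by edgeR 4.0.16 (quasi-likelihood test, with the library as block and both parts of a library given the same library size, Benjamini-Hochberg adjustment at 0.05) over snoRNAs with 10 or more placed counts in each library, or 10 or more placed short counts over the 3 libraries. The test was checked on simulated data with a fixed dispersion (spread beyond counting error) of 0.1. It recovered 84.1% of 4-fold differences in side for all placed reads but only 29.4% for short reads. Of 16-fold differences it recovered 99.8% and 83.5%. False calls were 1.28% to 2.51% of the simulated calls. The simulation gave each snoRNA the same side ratio in every library and no shared shift to 1 side. The real fit had a median log2 ratio of -0.75 for all placed reads, so this rate need not hold in these data. Levels and shares were compared by two-sided exact sign-flip permutation tests over 3 libraries. Alternatives were DESeq2 1.42.0, TMM sizes, other minima, read lengths and spans, gapped records left out, distinct records counted once and each library left out. Named were the 4 members, the 3 fragments with the most reads and up to 3 short fragments with at least 3 reads of each, the 3 snoRNAs nearest in level to each, and up to 4 snoRNAs of the list; of the list 5 were named so that a count could be read, chosen after their values were seen. Other software was R 4.3.3, Python 3.11.15, Biopython 1.88, SciPy 1.17.1, NumPy 2.4.6, pandas 2.3.3 and matplotlib 3.10.9.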

Additional observations from a re-analysis of the deposited data

How the results depend on the processing

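Depth limits what the members can show: library 2 holds 24 to 91 reads of each, and the 3 libraries allow no sign-flip p below 0.25. Full-length shares kept their direction in 28 of 28 alternatives, level ratios in 35 of 36 and differences in short share in 26 of 32. The log2 ratio of SNORD18A over SNORD18B was -0.14 with distinct records counted once. Reads not divided by length, a scale chosen after seeing the data, gave 0.95, 1.06 and 1.86 for SNORD16 over SNORD18A, SNORD18B and SNORD18C. The short share of SNORD18A minus the other box C/D snoRNAs was -4.23 to 6.09 points with each library left out (6.09 without library 2), 4.92 with distinct records and 1.12 with reads of up to 30 nt. That of SNORD18B was -2.02 to 2.15 points (2.15 without library 2), 6.18 and 0.316 under the same settings.

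For all placed reads, distinct records gave log2 ratios of 0.48 for SNORD18A, -0.23 for SNORD18B and 0.77 for SNORD18C, none past the threshold. Counting midpoints within 2 nt of the middle as centred, chosen after seeing the data, gave -1.05 for SNORD18A and -0.48 for SNORD18B, with 38 of 86 snoRNAs called. Leaving out each library gave -1.75 to -1.61 for SNORD16, 1.30 to 1.49 for SNORD18B and 1.85 to 2.36 for SNORD18C. For short reads, SNORD16 had -3.24 with DESeq2, -2.41 with reads of up to 30 nt and -3.54 to -2.90 with each library left out. SNORD18B had -0.059 to 0.50 with each library left out (-0.059 without library 1), -0.14 with distinct records and -0.20 with reads of up to 50 nt. The cause of these changes was not tested.

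Counts of calls on short reads were 19 with DESeq2 and 0 to 14 in edgeR with each library left out. They were 0 without library 2 (22 at an unadjusted p under 0.05) and 0 without library 3 (21). With TMM sizes set per part, the split of 3′ and 5′ calls was 38 and 39 for all placed reads, against 29 and 43 in the reported fit. For short reads it was 17 and 12, against 15 and 20. The median log2 ratio of all snoRNAs moved to -0.26, against -0.75, for all placed reads. The members' calls did not change with it.

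Without the library as block, 73 snoRNAs were called for all placed reads, against 72 with it, and no member's call changed. Leaving out reads listed under several entries could not be run, since the files hold no read sequences. For short reads, SNORD18 records whose stretch lay within 2 mismatches of another paralog were left out in its place, a setting chosen after seeing the data. No call changed. The setting removes no SNORD16 record, and the paralogs had no short-read call to lose, so this does not answer the question.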
